A study of Mus musculus with 4 samples.

Results

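CTCF summits at CpG-poor protein-coding promoters of the mouse cerebral cortex were described here. A summit is the base of highest enrichment that the authors' peak caller gave for a peak. A summit was taken when it lay within 1000 bp of the transcription start site (TSS) of a protein-coding gene and the genome sequence from 100 bp before to 100 bp after it was CpG-poor. CpG-poor meant a GC share below 0.55 or an observed over expected CpG ratio below 0.6. Of the 44672 summits that the authors called reproducibly in both pools of mice, 4729 lay at a protein-coding promoter, and 2325 of these were CpG-poor. The other 2404, which passed both limits, are called CpG-rich promoter summits. A further 37609 summits were CpG-poor and over 1000 bp from every annotated TSS, and are called distal CpG-poor summits.

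The study mapped CTCF by chromatin immunoprecipitation and sequencing in left cerebral cortex of adult B6CASTF1/J females aged 2 months, with no treatment and no second genotype. By its name this strain is an F1 hybrid of C57BL/6J and CAST/EiJ, and reads of the 2 parental genomes are not separated in these lists. The 4 libraries came from pool I and pool J, each a pool of 4 cortex biosamples with 2 technical replicate libraries, and whole cortex tissue mixes neurons, glia and vascular cells. Both libraries of a pool were merged before peaks were called, so no value per library is given here, and no test treats the pools as replicates. The read depth is unknown, and the identity of the control is not given in the sources used here. Each summit carries a signal value for both pools together and for each pool, in a unit of the peak caller that the notes do not name. Coordinates are on GRCm38 (mm10) and 1-based.

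CTCF is a DNA-binding protein with a row of zinc fingers that recognises a long, directional motif. It halts loop extrusion by the cohesin ring and marks loop anchors and insulators, and it also binds at promoters. CpG-rich promoters are typical of broadly used genes, while CpG-poor promoters are typical of genes with restricted use. Methylation of CpGs inside the motif can weaken CTCF binding.

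The sequences of 4 strong CpG-poor promoter summits are shown first because each holds a CTCF motif match. Pdrg1 is close to the limit of the rule, with 11 CpGs and a CpG ratio of 0.568. The motif was learned from the strongest summits of odd-numbered autosomes with no starting sequence, and its most frequent bases were TGGCCACCAGGGGGCGCTAG. A match was the best 20 bp site within 50 bp of a summit whose log2 odds passed the value that 1% of flanking windows pass. Each stretch runs from 100 bp before to 100 bp after the summit on the strand of the gene, with the match in capitals.
Dusp23, chr1:172633160-172633360, minus strand: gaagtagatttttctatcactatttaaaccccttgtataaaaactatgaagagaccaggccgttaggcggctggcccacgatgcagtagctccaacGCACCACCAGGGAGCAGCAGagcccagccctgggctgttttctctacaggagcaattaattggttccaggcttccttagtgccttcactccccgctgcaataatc
Pdrg1, chr2:153015384-153015584, minus strand: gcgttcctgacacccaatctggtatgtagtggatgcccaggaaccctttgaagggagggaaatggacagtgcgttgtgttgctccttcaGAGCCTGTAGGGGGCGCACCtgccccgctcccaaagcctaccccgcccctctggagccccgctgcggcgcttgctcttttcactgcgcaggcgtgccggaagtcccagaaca
Lingo1, chr9:56636371-56636571, minus strand: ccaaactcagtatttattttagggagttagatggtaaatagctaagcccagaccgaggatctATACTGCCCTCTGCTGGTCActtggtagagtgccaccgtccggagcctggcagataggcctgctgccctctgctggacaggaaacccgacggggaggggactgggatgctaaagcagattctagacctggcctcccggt
Msantd1, chr5:34915893-34916093, plus strand: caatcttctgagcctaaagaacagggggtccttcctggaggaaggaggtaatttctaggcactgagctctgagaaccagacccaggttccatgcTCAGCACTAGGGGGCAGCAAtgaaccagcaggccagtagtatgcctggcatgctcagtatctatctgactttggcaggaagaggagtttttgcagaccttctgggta
In Dusp23 and Pdrg1 the match reads in the direction of the gene. In Lingo1 it reads against the gene, so the capitals there show the reverse complement of the motif. The Msantd1 stretch holds no CpG at all. It lies 78 bp downstream of the start, and its summit was stronger than 96.5% of all conservative summits.

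A pair of further stretches comes from the strongest CpG-poor promoter summits that had no match by this measure.
Pcp4, chr16:96467486-96467686, plus strand: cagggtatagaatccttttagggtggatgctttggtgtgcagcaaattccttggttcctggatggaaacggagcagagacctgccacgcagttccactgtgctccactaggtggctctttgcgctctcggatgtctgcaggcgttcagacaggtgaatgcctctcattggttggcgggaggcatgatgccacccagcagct
Ap4e1, chr2:127008525-127008725, plus strand: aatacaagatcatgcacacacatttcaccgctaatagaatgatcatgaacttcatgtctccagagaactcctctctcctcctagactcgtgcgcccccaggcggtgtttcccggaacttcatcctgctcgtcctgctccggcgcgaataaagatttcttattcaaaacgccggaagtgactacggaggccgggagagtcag
Their best sites scored 10.2 for Pcp4 and 10.1 for Ap4e1, just under the limit of 10.89 log2 odds. They are therefore near misses of the threshold and not stretches without any likeness to the motif.

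The CpG-poor promoter summits held the CTCF motif more often than CpG-rich promoter summits and less often than distal CpG-poor ones. A match was present at 50.5% of the CpG-poor promoter summits (1175 of 2325; exact 95% binomial interval 48.5 to 52.6%). The share was 36.4% at CpG-rich promoter summits (875 of 2404; 34.5 to 38.4%), an odds ratio of 1.79 (1.59 to 2.01; adjusted exact p = 1.9e-22). It was 75.8% at distal CpG-poor summits (28523 of 37609; 75.4 to 76.3%), an odds ratio of 0.325 (0.299 to 0.355; adjusted exact p = 1.3e-141). These and the other comparisons of classes below are two-sided Fisher's exact tests on counts of summits, with Benjamini-Hochberg adjustment over 12 tests, the binomial test of strand included. Their p-values come from a single list in which neighbouring summits are not independent, and they say nothing about variation between animals.

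The classes were split on base composition, so the motif was also scored away from the summits. Windows 1000 bp to each side held a match in 1.16% of cases at CpG-poor promoter summits, 0.978% at CpG-rich ones and 0.967% at distal CpG-poor ones. Of all protein-coding TSS windows, 1.44% held a match, with 0.734% of the CpG-poor and 2.23% of the CpG-rich ones. On the even-numbered autosomes and X, which did not train the motif, the shares were 47.5%, 37.1% and 75.5% in the same order of classes. The match sat close to the summit, with its centre a median of 7.5 bp away and within 20 bp for 89.8% of matching CpG-poor promoter summits.

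The motif matches of the CpG-poor promoter summits carried a CpG less often than those of CpG-rich promoters. A CpG lay inside 58.5% of the 1175 matches at CpG-poor promoters (55.6 to 61.3%), inside 95.4% of 875 at CpG-rich promoters and inside 36.2% of 28523 at distal CpG-poor summits. These shares follow in part from the rule, which counts CpGs in the surrounding window, and were not tested. The CpG most often lay at motif positions 15 and 16, counted from the 5′ end of the motif. That CpG was present in 41.9% of matches at CpG-poor promoters, 76.1% at CpG-rich promoters and 27.5% at distal CpG-poor summits. The sites below, from 8 of the strongest CpG-poor promoter summits, are printed on the strand of the motif with each CpG in capitals, first 4 without a CpG and then 4 with at least 1.
Dusp23, chr1:172633245-172633264, minus strand: gcaccaccagggagcagcag
Lingo1, chr9:56636490-56636509, plus strand: tgaccagcagagggcagtat
Dusp13, chr14:21742006-21742025, minus strand: tggccactagagggcagact
Npff, chr15:102525285-102525304, minus strand: tggccacaaggtggcagcag
Pdrg1, chr2:153015476-153015495, minus strand: gagcctgtagggggCGcacc
Ccdc124, chr8:70873808-70873827, plus strand: gtgccaccagggggCGtcag
Rint1, chr5:23787624-23787643, plus strand: caaccagcagggggCGccac
Suds3, chr5:117116239-117116258, plus strand: tggccaccaggCGgCGcctg
The sites of Pdrg1, Ccdc124, Rint1 and Suds3 each hold the CpG of positions 15 and 16. Msantd1, whose window has no CpG, and Npff were chosen for display after their values were seen.

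**Figure D1:**
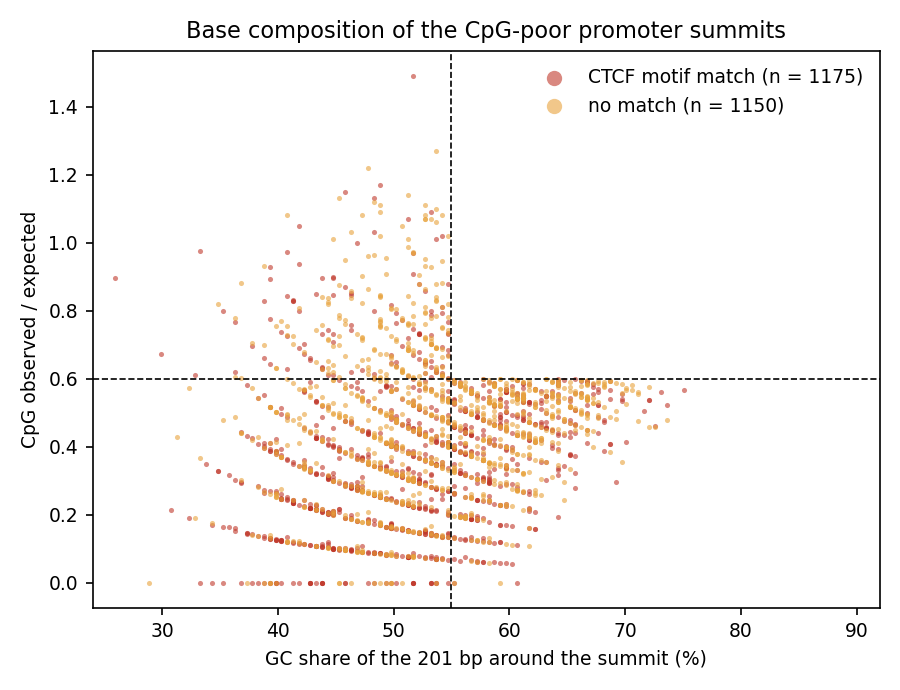
GC share (%) and CpG observed over expected ratio within 100 bp of each of the 2325 CpG-poor promoter summits, coloured by CTCF motif match. Dashed lines mark the limits of 55% and 0.6, and the empty upper right corner is where the CpG-rich promoter summits lie.

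The CpG-poor promoter summits lay between the other classes in base composition, and the limit they failed went with their motif share. Their median GC share was 52.2%, their median CpG ratio 0.414 and their median number of CpGs 6 per window. CpG-rich promoter summits had medians of 67.7%, 0.837 and 19, and distal CpG-poor summits 46.8%, 0.190 and 2. Of the CpG-poor promoter summits, 1162 failed both limits, 849 only the CpG limit and 314 only the GC limit, and 61 windows held no CpG. The motif was present in 57.1% of those that failed both limits (54.2 to 59.9%), 46.9% of those that failed the CpG limit only (43.5 to 50.3%) and 36.3% of those that failed the GC limit only (31.0 to 41.9%). The summits that failed GC alone thus had a motif share whose interval overlaps that of the CpG-rich promoter summits.

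At the edges of the rule, Bicd2 was taken with a GC share of 54.73% and Rab29 was left out with 55.22%. Sgsm2 was taken with a CpG ratio of 0.5999 and Mfsd6l left out with 0.6. Cox19 was taken at 1000 bp from its start and Socs1 left out at 1001 bp.

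The CpG-poor promoter summits were weaker than distal CpG-poor ones by the share above the list median, and that share did not separate them from CpG-rich promoter summits in the conservative list. Their median signal value was 236 (quartiles 137 and 418), against 234 (132 and 436) at CpG-rich promoters and 272 (143 and 448) at distal CpG-poor sites. Signal was above the median of the whole list for 44.2% of the CpG-poor promoter summits and 44.0% of the CpG-rich ones. The odds ratio of 1.01 had a 95% interval of 0.897 to 1.13 (adjusted exact p = 0.907), so differences of that size in either direction were not resolved. Against 50.4% of distal CpG-poor summits the odds ratio was 0.779 (0.715 to 0.848; adjusted exact p = 1.0e-08). The top of the range differed more, as the strongest decile held 8.86% of CpG-poor promoter summits (7.74 to 10.1%) and 13.1% of CpG-rich ones (11.8 to 14.6%), intervals that do not overlap. In the pool I list alone, the CpG-poor promoter summits were above its median more often than the CpG-rich ones, 48.4% against 42.1% (odds ratio 1.29, adjusted exact p = 6.4e-10).

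Among CpG-poor promoter summits, stronger ones held the motif more often. The share with a match was 29.4% in the weakest decile of signal over the whole list (75 of 255; 23.9 to 35.4%) and 80.1% in the strongest (165 of 206; 74.0 to 85.3%). In the weakest decile, CpG-rich promoter summits had 14.6% (10.7 to 19.2%) and distal CpG-poor summits 59.2% (57.6 to 60.8%). In the strongest decile, CpG-rich promoter summits had 77.5% (72.5 to 82.0%), an interval that overlaps that of the CpG-poor ones, and distal CpG-poor summits had 91.8% (90.9 to 92.7%). Median signal was 340 at CpG-poor promoter summits with a match and 173 at those without. Across the 1175 summits with a match, signal and motif score had a Spearman's rho of 0.334, a description over summits of the same libraries. The motif was learned from the strongest summits of odd-numbered autosomes of this same list. The rise with signal and the rho are therefore not independent of that training. Neither is given here for the chromosomes that did not train the motif. Base composition followed signal far less, with a rho of 0.060 for GC share and 0.0394 for the CpG ratio over the 2325 summits.

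**Figure D2:**
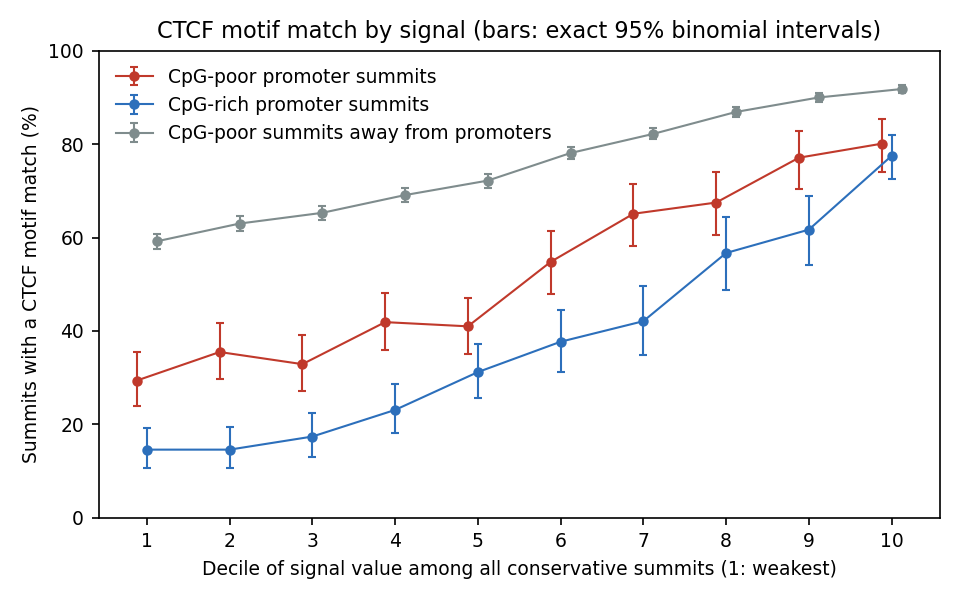
Share of summits with a CTCF motif match (%) by decile of signal among all conservative summits, for 3 classes, with exact 95% binomial intervals. CpG-poor promoter summits run between 29.4% in decile 1 and 80.1% in decile 10. Their interval overlaps that of CpG-rich promoter summits in deciles 5, 8 and 10.

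The strongest CpG-poor promoter summits lay at genes of varied roles. Dusp23, a dual-specificity phosphatase, had the highest value at 405 in pool I and 310 in pool J. Pcp4, a small calmodulin-binding protein of neurons, had 402 in pool I and 292 in pool J, with the summit 20 bp upstream of its start. Pdrg1, a prefoldin-like protein, had 391 in pool I and 297 in pool J.
All 3 were stronger than at least 99.8% of the summits of the conservative list, and in each pool's own values than at least 99.6%. Lingo1, a neuronal transmembrane protein that limits myelination, had 389 in pool I and 299 in pool J at 843 bp upstream of a start. Ap4e1, a subunit of the AP-4 adaptor of vesicle transport, had 387 in pool I and 293 in pool J. Dusp13, also a dual-specificity phosphatase, had 389 in pool I and 291 in pool J.
The remaining 4 of the 10 strongest were Wdr38, Ccdc124, Suds3, a subunit of the Sin3 deacetylase complex, and Rint1, which acts in vesicle transport. Of the 10, only Ccdc124 had its summit downstream of the start, at 118 bp within the 5′ UTR, and 8 held a motif match.

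Strong summits without a likeness to the motif were also found. Tmem260 had 384 in pool I and 247 in pool J, 73 bp upstream of its start, and its best site scored -1.13. Mtmr6, a phosphoinositide phosphatase, had 370 in pool I and 268 in pool J, and its best site scored -2.09. Both scores lie far under the limit, unlike that of Ddx47, an RNA helicase of ribosome production, whose site scored 10.5 beside 375 in pool I and 283 in pool J.

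CpG-poor promoter summits were spread widely around the TSS, whereas CpG-rich ones crowded at it. Only 36.4% of the CpG-poor promoter summits were within 250 bp of the TSS, against 70.3% of the CpG-rich ones (odds ratio 0.242, 0.214 to 0.273; adjusted exact p = 2.4e-122). Their median distance was 410 bp, against 124 bp. CpG-rich sequence itself concentrates at starts, and the rule split summits by local CpG content and limited their distance, so this difference is not independent of the rule. Upstream placement was more frequent, at 65.5% of CpG-poor promoter summits and 58.3% of CpG-rich ones (odds ratio 1.36, 1.20 to 1.53; adjusted exact p = 6.2e-07). The rule split the classes on local base composition, so this difference is not independent of the rule either. Within the CpG-poor class, the upstream share was 69.2% where both limits failed (66.4 to 71.8%) and 74.2% where GC alone failed (69 to 79%). It was 57.2% where CpG alone failed (53.8 to 60.6%), close to the CpG-rich share, and these shares were not tested. The 100 bp just upstream of the start held 13.6% of the CpG-poor promoter summits and the 100 bp just downstream 3.96%. In the CpG-rich class these bins held 28.7% and 14.3%. Starts of at least 2 protein-coding genes lay within 1000 bp of 5.76% of CpG-poor and 9.32% of CpG-rich promoter summits (odds ratio 0.595, 0.473 to 0.747; adjusted exact p = 4.8e-06). The direction of this difference changed with distance to the TSS. In each distance range up to 500 bp the CpG-poor share was the lower, with 8.33% against 12.9% within 100 bp. More than 500 bp away it was the higher, 4.66% (3.43 to 6.17%) against 1.61% (0.526 to 3.72%), with intervals that overlap. The shares by distance were not tested.

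**Figure D3:**
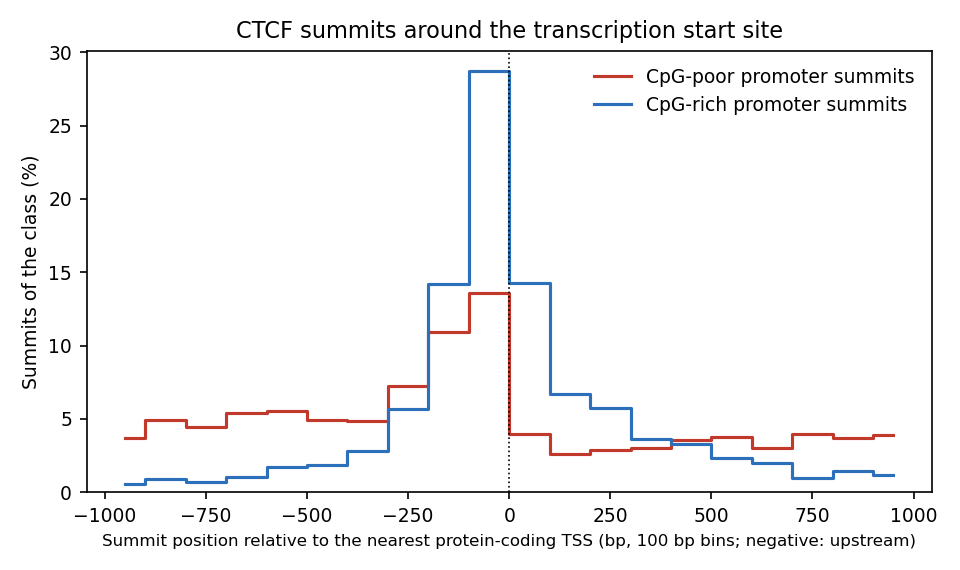
Position of CpG-poor and CpG-rich promoter summits relative to the nearest protein-coding TSS, as the share of each class (%) in 100 bp bins, with upstream to the left. The bin just upstream of the TSS holds 13.6% of CpG-poor and 28.7% of CpG-rich promoter summits.

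The annotation at the summits reflected that spread. Of the CpG-poor promoter summits, 49.5% lay outside protein-coding genes, 36.9% in introns, 8.65% in 5′ UTRs and 4.00% in coding exons. Of the CpG-rich promoter summits, 45.4% lay outside protein-coding genes, 20.5% in introns, 25.4% in 5′ UTRs and 8.15% in coding exons. Starts other than the outermost were involved too: 17.4% of CpG-poor promoter summits (15.9 to 19%) and 8.11% of CpG-rich ones (7.05 to 9.28%) lay over 1000 bp from the outermost start of their gene. The nearest start lay inside the gene for 27.4% of CpG-poor promoter summits (25.6 to 29.3%) and 25.2% of CpG-rich ones (23.4 to 27%). The intervals of that measure overlap. These positions were not tested.

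A CpG-poor summit did not always mean a CpG-poor start. The sequence within 100 bp of the nearest TSS itself passed both limits for 49.3% of the CpG-poor promoter summits (1147 of 2325). Those 1147 lay at the flank of a CpG-rich start, a median of 508 bp from it, and 44.8% held the motif (41.9 to 47.7%). The 1178 summits at starts that were CpG-poor too lay a median of 292 bp away, and 56.1% held the motif (53.2 to 59.0%). The motif share also went with distance, at 42.4% within 100 bp of the TSS (37.6 to 47.4%) and 55.3% more than 500 bp away (52.2 to 58.5%). At the CpG-rich promoter summits these shares were 36.7% (33.7 to 39.7%) and 42.9% (37.3 to 48.6%).

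CpG-poor promoter summits lay in repeats more often than CpG-rich promoter summits and less often than distal CpG-poor ones. The summit base lay in a repeat masked in the reference at 12.4% of CpG-poor promoter summits, against 1.71% of CpG-rich ones (odds ratio 8.18, 5.85 to 11.7; adjusted exact p = 1.1e-51). Against 22% of distal CpG-poor summits the odds ratio was 0.504 (0.443 to 0.572; adjusted exact p = 2.3e-30). Within the class, the share was 20.7% where both limits failed, 5.41% where GC alone failed and 3.77% where CpG alone failed. The rule split CpG-poor from CpG-rich promoter summits on base composition, so the difference between those 2 classes is not independent of the rule. A repeat base was also more frequent with the motif, at 18% of matching summits (15.8 to 20.3%) and 6.78% of those without a match (5.4 to 8.39%).

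Another conservative summit lay within 2000 bp of 24.7% of CpG-poor promoter summits and 14.4% of distal CpG-poor ones (odds ratio 1.95, 1.77 to 2.16; adjusted exact p = 2.5e-36). At CpG-rich promoters the share was 25.1% (odds ratio 0.979, 0.856 to 1.12; adjusted exact p = 0.831). With a distance of 10000 bp, the direction against CpG-rich promoters turned, with 59.4% of CpG-poor and 56.0% of CpG-rich promoter summits (odds ratio 1.15, adjusted exact p = 0.0219). In the pool I list alone, at 2000 bp, the shares were 43.7% and 46.8% (odds ratio 0.882, adjusted exact p = 0.00243).

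Motif matches at CpG-poor promoters read in the direction of the gene more often than against it. The match was on the strand of the gene at 56.2% of matching summits (660 of 1175; 53.3 to 59.0%; adjusted exact p = 3.1e-05, two-sided exact binomial test against 50%). The share was 59.1% for summits upstream of the start (479 of 811; 55.6 to 62.5%) and 49.7% for those at or downstream of it (181 of 364; 44.5 to 55.0%), a difference that was not tested. At CpG-rich promoter summits the share was 61.0% (57.7 to 64.3%), and at distal CpG-poor summits, set against their nearest gene, 52.1% (51.5 to 52.7%). The bias is therefore not shown to be particular to CpG-poor promoters. It was not detected among the 194 matches that passed the stricter limit of 0.1% of flanking windows, of which 51.5% were on the gene's strand (44.3 to 58.8%; adjusted exact p = 0.831). In the remaining 981 matches the share was 57.1% (53.9 to 60.2%), a split made after the data were seen.

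Short motifs of other promoter factors were looked for on both strands, as letters only. The AP-1 sequence TGACTCA lay within 100 bp of 3.83% of CpG-poor promoter summits (3.09 to 4.69%), 1.37% of CpG-rich ones and 3.49% of distal CpG-poor ones, and of 2.69% of all protein-coding TSSs. The NF-Y core ATTGG was near 21.3%, 17.4% and 22.2% of these classes and 25.4% of TSSs. The YY1 sequence AAGATGG was near 4.00%, 3.74% and 5.22% of them and 5.14% of TSSs. The rule split the promoter summits on base composition in the same stretch around the summit. Differences between CpG-poor and CpG-rich promoter summits in these letters are therefore not independent of the rule. The TATA box letters TATAAA, searched 20 to 40 bp upstream of the nearest TSS on its strand, were present at 0.796% of the starts of CpG-poor promoter summits (0.473 to 1.26%). They were present at 1.19% of the starts of CpG-rich promoter summits and 1.70% of all protein-coding starts. Among starts of CpG-poor promoter summits, the share was 0.613% at CpG-poor starts (0.247 to 1.26%) and 0.984% at CpG-rich starts (0.492 to 1.75%). Among all protein-coding starts it was 2.63% at CpG-poor ones (2.42 to 2.85%) and 0.67% at CpG-rich ones (0.561 to 0.794%). These shares were not tested. Overlap of these letters with each other or with the CTCF match was not counted.

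Both pools contained nearly all of the CpG-poor promoter summits. Of the 2325, 2249 (96.7%) overlapped a peak of each pool's own list, 74 overlapped pool I alone and 2 pool J alone. The rule used a list that requires both pools, so this is a description. Signal values of the pools rose together, with a Spearman's rho of 0.957 across the 2325 summits, which share libraries and are not replicates. On the log2 scale, pool I exceeded pool J by a median of 1.09 (SD 0.42 over summits), the same median as for all conservative summits. With depth unknown, that median is not a difference in binding.

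Only 14 of the 2325 (0.602%) lay over 2-fold from the median ratio, and the 8 below it shared a common form. Each of those 8 was in a peak interval that holds several summits, with a stronger summit within 250 bp. The lowest ratio was at Rex1bd, with a signal of 8.89 in pool I and 200 in pool J. Kirrel3, a cell adhesion molecule of neurons, had 23.7 in pool I and 189 in pool J at 97 bp upstream of its start.
Which summit of such an interval each pool's value describes was not tested, so these are not read as differences between the pools. Among the 6 above the median, Foxj1, a master factor of motile cilia, had 126 in pool I and 26.1 in pool J in an interval with a single summit. Zfp954 had 116 in pool I and 24.5 in pool J, also in an interval with a single summit. Ezh1, a Polycomb methyltransferase, had 32.6 in pool I and 5.88 in pool J in an interval with several summits.

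The weakest CpG-poor promoter summits lay beside stronger ones. All of the 20 weakest had a stronger summit within 250 bp, as did 47 (2.02%) of the class, 54 (2.25%) of the CpG-rich promoter summits and 230 (0.612%) of the distal CpG-poor ones. The weakest 3, at Grb2, Cenpx and Chkb, had combined signals of 9.16, 9.29 and 9.32. Grb2, an adaptor of receptor tyrosine kinase signalling, still had 136 in pool I and 80.2 in pool J. Without summits of this kind the lowest combined signal in the class was 62.2, and no comparison of classes changed its side of the threshold.

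Turning to genes, 2308 of 21938 protein-coding genes (10.5%) had a CpG-poor promoter summit and 2522 (11.5%) a CpG-rich one. Both kinds were present at 274 genes, so 2034 had the CpG-poor kind only. A single CpG-poor promoter summit was found at 2164 genes, 2 at 134 and 3 or more at 10. Plec, the cytoskeletal linker plectin with many alternative first exons, had the most, 4. Its summits had 314, 107, 86.1 and 317 in pool I and 167, 38.6, 39.8 and 183 in pool J, and each held a motif match. Adar, an RNA-editing deaminase, and Atf7ip, a cofactor of heterochromatin formation, had 3 each.

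The clustered protocadherins stood out among the gene lists. These genes encode cadherin-like surface proteins that neurons choose in combinations, and each variable exon has its own promoter. A CpG-poor promoter summit was present at 39 of 57 (68.4%), beside 10.5% of all protein-coding genes, and a CpG-rich one at 2 (3.51%). The list was chosen with earlier results of these data known, so the count is a description. The 43 summits involved, all on chromosome 18, made up more than the other 41 summits of that chromosome. Without the protocadherins, chromosome 18 had 8.99 CpG-poor promoter summits per 100 protein-coding genes, against 10.6 genome-wide.

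The 3 protocadherin clusters differed in how many summits held a match at the limit of 1% of flanking windows. Of the summits at alpha genes 9 of 13 held a match, at beta genes 8 of 13, and at gamma genes 0 of 17. All 17 matches read in the direction of the gene. The best sites at gamma summits scored between -10.1 and 9.21, with a median of -1.44, against medians of 12.3 at alpha and 11.4 at beta summits. The highest scores were 18.6 at alpha and 12.9 at beta summits. At the stricter limit of 0.1% of flanking windows, 19.6 log2 odds, no cluster therefore held a match. The difference between clusters was not tested.
The signals of the clusters lay in overlapping ranges. In pool I the lowest, median and highest signals were 67.8, 113 and 126 at alpha, 57.1, 105 and 161 at beta, and 78.1, 117 and 206 at gamma summits. In pool J they were 34.8, 44.5 and 50.8 at alpha, 20.4, 37.7 and 71.9 at beta, and 23.7, 39.6 and 98.7 at gamma summits.
That overlap held in both pools. Most of the protocadherin summits lay just upstream of the start, 36 of 43, at a median distance of 76 bp, and only 2 of the 43 were above the median signal of the list. Their median GC share of 42.3% was below the limit of the rule, while their median CpG ratio of 0.618 was above its limit. Genes without a CpG-poor promoter summit included Pcdha1, Pcdhac1 and Pcdhac2 in the alpha cluster, 9 of 22 genes in the beta cluster, and Pcdhgc3, Pcdhgc4 and Pcdhgc5 in the gamma cluster. The strongest was at Pcdhga12, with 206 in pool I and 98.7 in pool J, 323 bp downstream of its start.

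Several large gene families known for restricted use rarely had such a summit. Olfactory receptors, the odour receptors of the nose, had one at 8 of 1135 (0.705%), vomeronasal receptors at 2 of 329 (0.608%), and keratins with keratin-associated proteins at 2 of 110 (1.82%). Cytochrome P450 genes had one at 4 of 98, defensins at 3 of 64, serpins at 4 of 61, and chemokines with interleukins at 4 of 64. These shares, between 0.608% and 6.56%, are all under 10.5%. The CpG-rich kind was scarce in these families too, so the low shares are not particular to CpG-poor summits. It was present at 0 olfactory receptor, vomeronasal receptor, keratin and defensin genes. Cytochrome P450 genes (1.02%), serpins (1.64%) and chemokines with interleukins (1.56%) had it at 1 gene each, against 11.5% of all genes. Globins (8 genes) and the liver list (12 genes) had none, while the skeletal muscle list had one at 2 of 12 genes (16.7%) and the erythroid list at 1 of 9 (11.1%), both above 10.5%. No list was tested, and the tissue lists are small.
The few that were occupied could be strong. Olfr557 had 341 in pool I and 193 in pool J at 329 bp upstream of its start, with a match of 24.1 log2 odds on the gene's strand. Olfr556, close to it on chromosome 7, had 276 in pool I and 168 in pool J. Vmn1r20 and Vmn1r27 both had a best site of 7.4, below the limit.

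Among lists of broadly used genes, ribosomal proteins and proteasome subunits were above the share of all genes for both kinds of summit. Cytoplasmic ribosomal proteins had a CpG-poor promoter summit at 17 of 82 genes (20.7%) and a CpG-rich one at 18 (22%). Proteasome subunits had them at 8 of 39 (20.5%) and 6 (15.4%). At Psmc4, a base subunit of the proteasome, the signals were 338 in pool I and 245 in pool J, and the CpG ratio of 1.49 was the highest of all CpG-poor promoter summits at a GC share of 51.7%. Rpl11 had 354 in pool I and 230 in pool J without a match.
At Rpl11, Rps14, Psmc4, Psmc6 and Psmd1 the summit lay upstream of a start that was itself CpG-rich. Zinc finger proteins had a CpG-poor promoter summit at 50 of 394 (12.7%), nuclear respiratory chain genes at 10 of 84 (11.9%) and replication-dependent histones at 8 of 67 (11.9%), all near the share of all genes. The histones had a CpG-rich promoter summit at 3 of 67 (4.48%), under the 11.5% of all genes.

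Neuronal gene lists ranged from near to well above that share. Synaptic adhesion and scaffold genes had a CpG-poor promoter summit at 8 of 27 (29.6%) and a CpG-rich one at 5 (18.5%). Nrxn2, a presynaptic neurexin, had 363 in pool I and 251 in pool J with a match on the gene's strand. Nlgn1, its postsynaptic partner neuroligin, had 329 in pool I and 207 in pool J without a match.
Glutamate and GABA receptors were at 8 of 46 (17.4%) for each kind, among them Grin2a with 291 in pool I and 161 in pool J. Grin2b, the other NMDA receptor subunit named, had 249 in pool I and 126 in pool J. Sodium, calcium and HCN channels were at 5 of 44 (11.4%).
Scn2a, a neuronal sodium channel, had 350 in pool I and 212 in pool J at 79 bp upstream of its start. Scn1a had 338 in pool I and 211 in pool J at 132 bp upstream. Both sodium channel summits sat in AT-rich sequence, with GC shares of 34.8% and 36.3%, and held a match on the gene's strand. Potassium channels were at 9 of 89 (10.1%), close to all genes.

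Immediate early genes, which respond to neuronal activity, had a CpG-poor promoter summit at 4 of 20 (20%), among them Dusp1, Bdnf and Fosb. A CpG-rich one was present at 6 (30%). The shares of all protein-coding genes were 10.5% and 11.5%. Bdnf, a neurotrophin with many promoters, had 250 in pool I and 152 in pool J with a match against the gene's strand. Dusp1, a phosphatase of activated kinases, had 315 in pool I and 183 in pool J without a match. At Fosb, a subunit of the AP-1 factor, the best site scored -6.96. Markers of cell types with a CpG-poor promoter summit were few in number. Inhibitory neurons had 3 of 18 (16.7%), excitatory neurons 2 of 17 (11.8%) and oligodendrocyte lineage 2 of 14 (14.3%). Microglia had 1 of 13 (7.69%), endothelium 1 of 11 (9.09%) and astrocytes 0 of 12. Occupancy is not expression, and counts this small do not separate the lists.

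Some lists leaned to CpG-rich summits instead. Genes of CTCF and cohesin had a CpG-poor promoter summit at 3 of 20 (15%) and a CpG-rich one at 7 (35.0%). Smc3, a core cohesin subunit, had 302 in pool I and 210 in pool J, and Pds5a, a cohesin regulator, had 316 in pool I and 191 in pool J. Imprinted genes had the CpG-poor kind at 2 of 37 (5.41%), Peg12 and Zim1, and the CpG-rich kind at 8 (21.6%). Hox genes had the CpG-poor kind at 1 of 39 (2.56%), Hoxc5, and the CpG-rich kind at 4 (10.3%). Of all protein-coding genes 10.5% and 11.5% had these kinds, so the Hox list was not above them for CpG-rich summits. These differences between kinds were not tested.

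**Figure D4:**
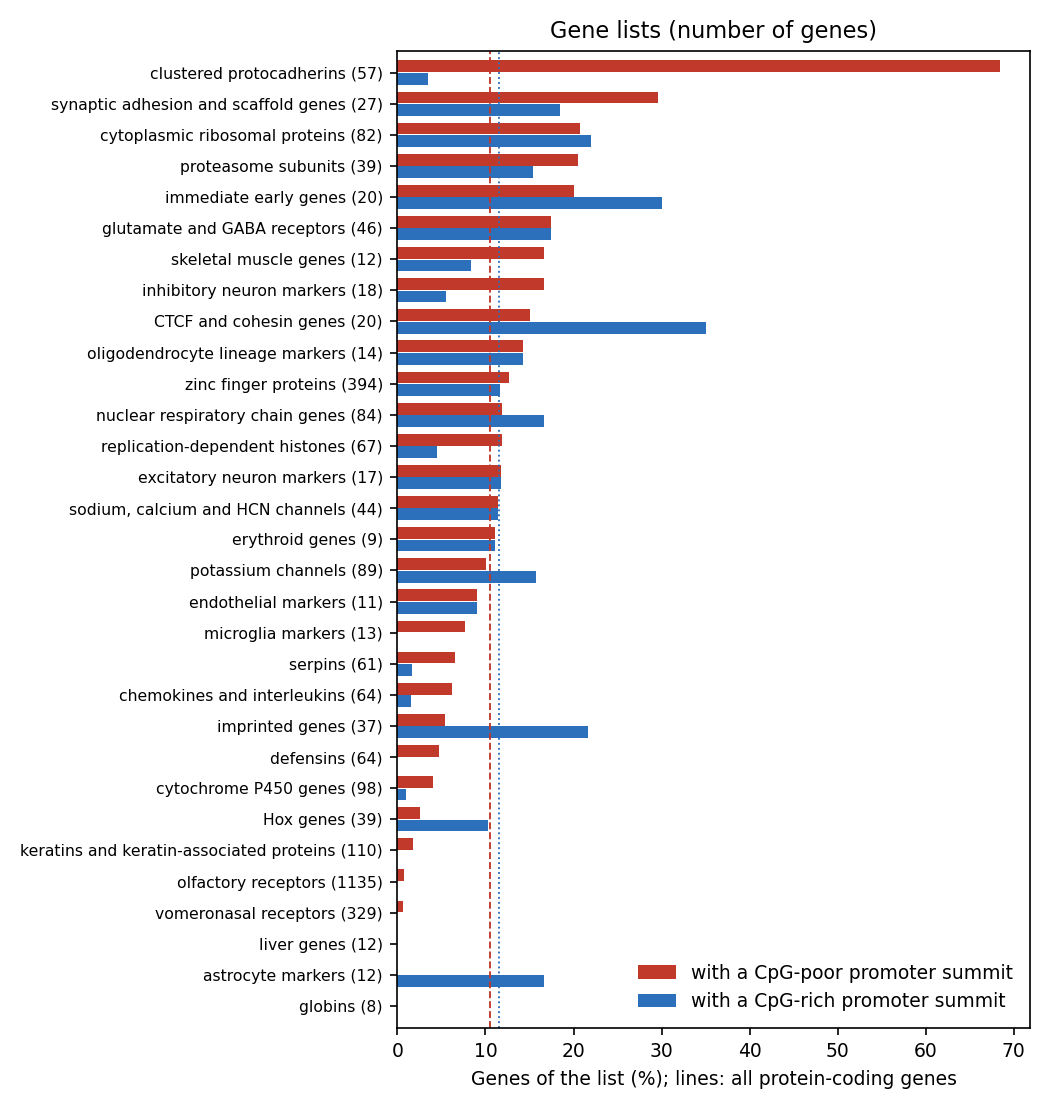
Share of protein-coding genes with a CpG-poor and with a CpG-rich promoter summit (%) in 31 gene lists, with the number of genes of each list in brackets. The dashed line is the share of all protein-coding genes with a CpG-poor promoter summit (10.5%) and the dotted line that with a CpG-rich one (11.5%), and the clustered protocadherins reach 68.4%.

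Across chromosomes, CpG-poor promoter summits were most frequent per 100 protein-coding genes on chromosome 18 (16.4), which holds the protocadherins, and on chromosome 15 (12.7). They were least frequent on X (4.96). Their share of promoter summits lay between 42.6% on chromosome 5 (36.9 to 48.5%) and 58.6% on chromosome 17 (51.8 to 65.1%), and was 49.5% on X (39.1 to 59.9%). Chromosome Y, absent from these females, had none.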

How the data were processed

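Peak lists on mm10 deposited by the authors were used: 4 lists thresholded by irreproducible discovery rate (IDR) at 0.05 and ranked lists of both pools and of each pool before that threshold. The score deposited by the authors is a scaled IDR, 125 times its negative log2, up to 1000, and the lowest score was 540. In the deposited ranked lists the authors wrote the IDR as −log10, and 100% of scores could be recomputed from it within 1 unit. The signal value deposited by the authors is the caller's own, in a unit not given in the sources used here, as are the aligner, the caller and their versions. In the ranked list of both pools, the first input was taken as pool I because 84.5% of its intervals were identical to ranked pool I peaks and 0% to pool J peaks. Read depth is unknown, so binomial intervals (exact, 95%) cover counting of summits only.

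Summits were placed on GRCm38 with GENCODE M21 protein-coding TSSs. The tools were SciPy 1.17.1, matplotlib 3.10.9, pandas 2.3.3, numpy 2.4.6 and Python 3.11.15. The motif came from the strongest 1000 summits of odd-numbered autosomes. The scripts were tested on simulated data. The members and the 31 gene lists were chosen with earlier results of these data known. By rule the text names the genes of the 10 strongest summits, the 5 strongest without a match, the 5 at each end of the pool ratio, the 3 weakest, the 3 genes with most summits, and per list up to 3 with the strongest summit and the first without. Clone symbols were passed over. One gene that this rule names is not reported here.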

Additional observations from a re-analysis of the deposited data

How the results depend on the processing

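The 12 tests, the number of CpG-poor promoter summits, their share of promoter summits, and their gene and protocadherin counts were recomputed under alternatives, among them an IDR of 0.01, the list from pooled reads, each pool's list, other limits of distance, GC, CpG and window, the strongest summit per interval and starts of coding transcripts only. Leaving out summits close to a stronger one and leaving out the protocadherins were chosen after seeing the data. Of 169 recomputed values of the tests and the number of summits, 162 were counted as unchanged. For a test this meant the same side of the threshold, and the same direction if either value passed it. Where neither passed, the direction could turn. Signal above the median against CpG-rich promoter summits had an odds ratio of 1.01 in the main setting and 0.984 at an IDR of 0.01. The number of summits has no threshold and was judged by its fold change alone. The number of CpG-poor promoter summits was 4413 in the pool I list alone and 1338 with a promoter distance of 500 bp. The odds ratio for signal above the median against CpG-rich promoter summits passed the threshold in the pool I list alone (1.29) and with a window of 250 bp to each side (1.14, adjusted exact p = 0.033). That for a neighbouring summit passed it in the pool I list alone (0.882), and turned to 1.15 at 10000 bp. The share of matches on the gene's strand was 51.5% at the 0.1% motif limit, where 194 matches remained. The cause of these changes was not tested. The odds ratio for the motif ranged from 1.62 to 2.04 against CpG-rich promoter summits and from 0.290 to 0.401 against distal CpG-poor ones. Other shares and gene lists were not recomputed. No paired analysis was possible because the libraries that share a technical replicate number belong to different pools, and both libraries of a pool were merged before peaks were called. With depth unknown, how many weaker summits a deeper experiment would add was not tested.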
